A study of Rattus norvegicus with 6 samples.

Results

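The miRNAs described here are rno-miR-192-5p, rno-miR-194-5p and rno-miR-215, which come from 2 pairs of neighbouring miRNA genes. A distinct read sequence is called a tag, and a tag was given to a miRNA when its first 18 bases were those of the mature sequence. These 3 miRNAs were taken from 674 that can be told apart by their first 18 bases, and they held 851, 163 and 6 of the 1528721 tags. Small RNA was sequenced from the liver of 3 Wistar rats with nonalcoholic fatty liver disease (NAFLD) and 3 normal Wistar rats, with 1 library per rat. By the study's methods the rats were male, the NAFLD animals were fasted and then fed a starch-rich diet, and the normal animals received a standard diet. Triglyceride content guided which NAFLD livers were sequenced but not which normal ones, so the groups differ in diet, in fasting and in sampling. The labels give an age of 4 months for all 6 rats, and the methods give another age.

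miRNAs of about this length guide Argonaute proteins to messenger RNAs, mainly by pairing through the seed, which is bases 2 to 8. The genes of miR-192, miR-194 and miR-215 are known for high activity in liver, gut and kidney, where transcription factors of the hepatocyte nuclear factor (HNF) family switch on both gene pairs, and for their response to p53. Each gene pair is transcribed as a unit, so that a miR-194 copy is made together with either miR-192 or miR-215.

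The mature sequences are shown first because their seeds divide the 3 miRNAs into 2 groups. They are RNA sequences from RefSeq on the GRCr8 assembly, written 5′ to 3′ with the seed in capitals.
rno-miR-192-5p: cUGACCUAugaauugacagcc
rno-miR-215: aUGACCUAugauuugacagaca
rno-miR-194-5p: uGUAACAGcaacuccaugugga
miR-192-5p and miR-215 have the same seed, UGACCUA, and within their shared length they differ by C1A, A12U and C20A, with the miR-192-5p base first and positions counted from 1 at the 5′ end. miR-194-5p has the seed GUAACAG. The first 18 bases hold 2 of the 3 differences, so reads of miR-192-5p and miR-215 were counted apart.

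The hairpins are shown because they fix which 3′ bases a gene encodes and which copy of miR-194 a read can come from. The mature 5p sequence is in capitals, and all 4 lie on the + strand of GRCr8.
Mir194-2 (chr1:212994024-212994108): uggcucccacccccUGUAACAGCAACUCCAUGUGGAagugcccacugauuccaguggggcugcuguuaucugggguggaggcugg
Mir192 (chr1:212994209-212994318): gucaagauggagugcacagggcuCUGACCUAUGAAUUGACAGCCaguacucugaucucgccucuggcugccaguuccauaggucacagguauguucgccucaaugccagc
Mir194-1 (chr13:99382716-99382798): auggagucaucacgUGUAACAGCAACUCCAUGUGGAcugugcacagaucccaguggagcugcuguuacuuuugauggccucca
Mir215 (chr13:99382990-99383086): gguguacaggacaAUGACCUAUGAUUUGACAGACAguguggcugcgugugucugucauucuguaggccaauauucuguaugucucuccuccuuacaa
Mir194-2 and Mir192 are 100 bases apart, between Atg2a and Ehd1. Mir194-1 and Mir215 are 191 bases apart, inside the span of Iars2. The deposited tags carry no coordinates, and the submitters' processing notes name the older builds Rnor_5.0 and rn5.

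The libraries held 11601058 to 11813490 clean reads in the NAFLD group and 11853876 to 11880695 in the normal group. Reads that matched any miRNA by 18 bases made up 75.7% to 79.2% of the NAFLD libraries and 85.7% to 91.3% of the normal libraries. The liver label was checked with miR-122, the defining hepatocyte miRNA: its arms summed to 445246 to 465333 TPM (reads per 1000000 clean reads) in the NAFLD and to 560846 to 595769 TPM in the normal libraries. Its leading arm, miR-122-5p, was the 1 miRNA of 167 tested that passed the threshold (0.599%). Its log2 fold change was -0.35 (SE 0.04, edgeR quasi-likelihood test, Benjamini-Hochberg adjusted p = 0.000532). The call was lost with TMM factors, with the reads of all miRNAs as library size and in limma on log2(TPM + 1). It was also lost with up to 3 mismatches allowed (log2 fold change -0.32, edgeR adjusted p = 0.0758). The other arm, miR-122-3p, averaged 188 TPM in NAFLD and 156 TPM in normal libraries (log2 fold change 0.27, edgeR adjusted p = 0.986). The summed levels of the other cell markers overlapped between the groups: 23.5 to 48.4 against 14.7 to 41.1 TPM for endothelial cells, 7.48 to 15.3 against 3.96 to 13.4 TPM for leukocytes, 27.0 to 76.3 against 30.8 to 50.4 TPM for erythroid cells and 532 to 665 against 342 to 593 TPM for stellate cells or fibroblasts. The stellate markers went both ways. miR-199a-3p had 400 to 439 against 210 to 384 TPM, without overlap, and miR-145-5p averaged 14.9 against 36.4 TPM (edgeR adjusted p = 0.986 each). No overlap was found for 4.19% of the 167 miRNAs tested. Of the listed markers, 4 of 5 for leukocytes, 3 of 4 for erythroid cells and 2 of 5 for biliary cells were in the table. The biliary markers in the table summed to 0.765 to 2.03 against 1.77 to 2.95 TPM, and the pancreas markers to 13.4 to 20.5 against 14.99 to 23.6 TPM. Nearly all of the pancreas sum was miR-375-3p, with 13.3 to 20.5 against 14.99 to 23.6 TPM. Of the other pancreas markers, miR-216a-5p had 0 reads in every library. miR-217-5p had 0.172 TPM in NAFLD 1, 0.085 TPM in NAFLD 2 and 0 in NAFLD 3 and the normal libraries. In bulk tissue, fewer cells of a type and less of a miRNA per cell cannot be told apart.

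The 6 libraries fell into 2 sets by a property that is not their group. Over 33 abundant miRNAs, the median share of reads with a single mismatch at position 4 was 1.16% to 1.44% in NAFLD 2, NAFLD 3 and normal 2, and 0.0416% to 0.0642% in NAFLD 1, normal 1 and normal 3. These are called the high and low substitution sets. Among reads within 3 mismatches of miR-192-5p, only 59.3%, 58.9% and 59.1% matched all 18 bases in NAFLD 2, NAFLD 3 and normal 2, against 99.1%, 99.2% and 99.3% in NAFLD 1, normal 1 and normal 3. For miR-194-5p the exact share was 59.3%, 58.9% and 60.9% in the high set and 98.7%, 99.1% and 99.1% in the low set. An exact match therefore left out a similar share of the reads of both miRNAs in the high set.

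The mismatches in the high set lay at the same few positions in every library. In miR-192-5p, A8C was carried by 22.3%, 22.5% and 22.3% of the reads within 3 mismatches in NAFLD 2, NAFLD 3 and normal 2, and by less than 0.01% in each low library. A8C changes the last base of the seed. A16C followed with 15.4%, 15.8% and 15.7% in the same libraries, and G3A, also in the seed, with 4.58%, 4.55% and 4.65%. In miR-194-5p, A16C was at 17.0%, 18.8% and 17.7% and A5C, in the seed, at 16.2%, 16.2% and 15.03%. Both miRNAs thus had a frequent A-to-C change at position 16, which came after A8C in miR-192-5p. The high and low libraries did not overlap for any of these changes.

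**Figure D1:**
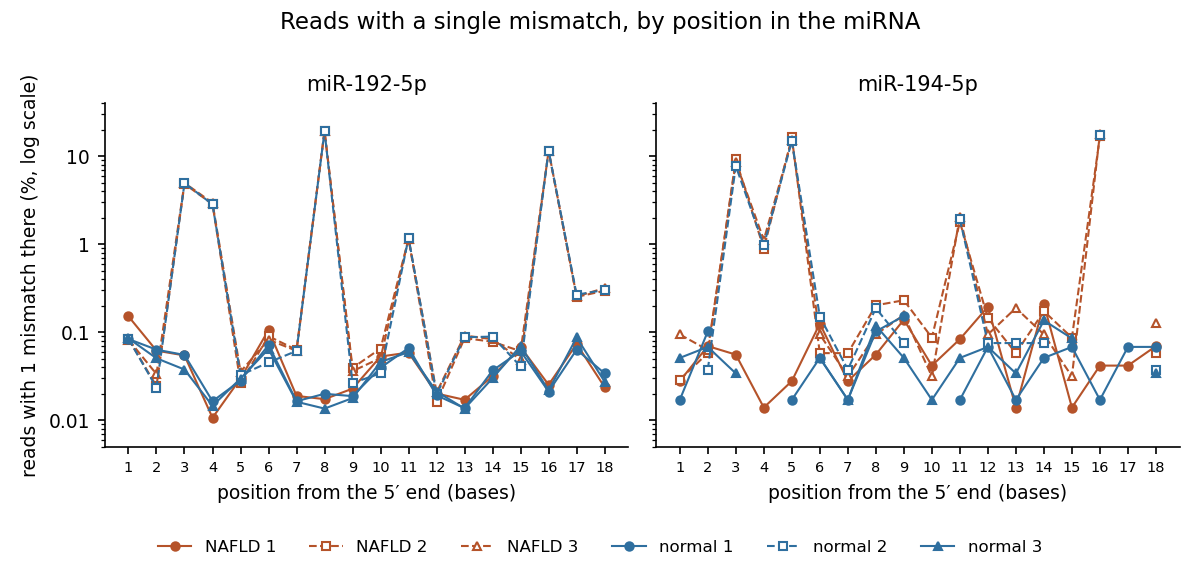
Share of miR-192-5p and miR-194-5p reads with exactly 1 mismatch at each position of the first 18 (y axis, percent, log scale; x axis, position from the 5′ end), with 1 line per library, solid for the low and dashed for the high substitution set; positions with 0 such reads are not drawn. The dashed lines of NAFLD 2, NAFLD 3 and normal 2 peak together at positions 3, 4, 8, 11 and 16 of miR-192-5p and at 3, 4, 5, 11 and 16 of miR-194-5p.

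miR-192-5p was the most abundant of the 3 miRNAs and ranked 5 by reads in each of the 6 libraries. It had 28269, 15345 and 15925 TPM in NAFLD 1 to 3 and 21523, 11116 and 25426 TPM in normal 1 to 3. The groups overlapped between 15345 and 25426 TPM, with a normal library lowest and a NAFLD library highest. The 3 libraries of the high substitution set were the 3 lowest. The means were 19847 ± 7300 TPM in NAFLD and 19355 ± 7397 TPM in normal liver (SD, n = 3 each; two-sided exact permutation p = 1). The log2 fold change was 0.04 (SE 0.29, 95% interval -0.59 to 0.66, edgeR adjusted p = 0.986).

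miR-194-5p is encoded by both gene pairs and was lower by reads than miR-192-5p in every library. It had 618, 293 and 269 TPM in NAFLD 1 to 3 and 494, 223 and 494 TPM in normal 1 to 3, at ranks 20 to 25. As for miR-192-5p, the groups overlapped and the high substitution libraries were the 3 lowest. The means were 393 ± 195 TPM and 404 ± 156 TPM (SD, n = 3 each; exact permutation p = 1), with a log2 fold change of -0.04 (SE 0.46, 95% interval -1.04 to 0.96, edgeR adjusted p = 0.986).

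miR-215, with the seed of miR-192-5p, was near the limit of detection. It had 15, 5 and 8 reads in NAFLD 1 to 3 and 23, 4 and 7 reads in normal 1 to 3, which is 1.29, 0.425 and 0.677 TPM and 1.94, 0.337 and 0.589 TPM. The highest and the lowest library were both normal. Their exact binomial intervals, 1.23 to 2.91 TPM in normal 1 and 0.0918 to 0.863 TPM in normal 2, did not overlap. Such intervals cover counting error only. The group means of 0.798 ± 0.446 and 0.955 ± 0.862 TPM (SD, n = 3 each) did not differ beyond the spread (exact permutation p = 0.9). At these counts miR-215 did not pass edgeR's filter on low counts and has no adjusted p there. All 62 reads reached base 20 and carried the A of C20A, which lies outside the 18 bases used to choose them.

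**Figure D2:**
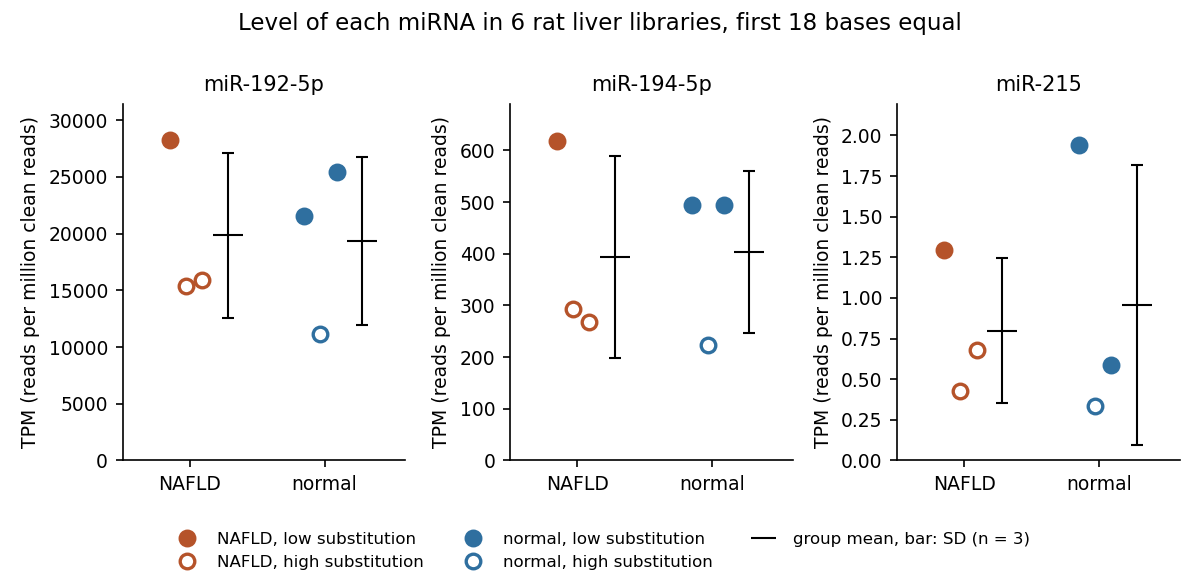
TPM of miR-192-5p, miR-194-5p and miR-215 in each library (y axis, reads per 1000000 clean reads; x axis, group), filled points for the low and open points for the high substitution set, with the group mean and SD (n = 3). In miR-192-5p and miR-194-5p the open points are the lowest in both groups, and in all 3 miRNAs the NAFLD and normal libraries overlap.

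The levels of the 3 miRNAs were in the same order in every library, miR-192-5p above miR-194-5p above miR-215, and these levels did not overlap between neighbours in that order. TPM counts whole reads, and the mature sequences have 21 or 22 bases, so no length scaling was made between them. Reads of miR-192-5p were 11093 to 43155 times those of miR-215, and reads of miR-194-5p were 255 to 838 times those of miR-215.

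The levels of miR-192-5p and miR-194-5p were divided by the substitution sets without overlap, while for miR-215 NAFLD 3 of the high set lay above normal 3 of the low set. The mean of the low set over that of the high set was 1.77-fold for miR-192-5p, 2.05-fold for miR-194-5p and 2.66-fold for miR-215. This was not particular to them: over 37 miRNAs with a mean of at least 100 TPM the median log2 ratio was 0.54, beside 0.83 for miR-192-5p and 1.03 for miR-194-5p, and for 21 of the 37 (56.8%) all low libraries lay above all high ones. Within the low set, the single NAFLD library had 1.20 times the miR-192-5p and 1.25 times the miR-194-5p of the mean of the normal pair. Within the high set, the mean of the NAFLD pair was 1.41 times and 1.26 times that of the single normal library. The NAFLD values were thus the higher ones within both sets, with 1 library on one side of each comparison and no test within a set. With the set as a covariate in edgeR, the log2 fold change was 0.38 for miR-192-5p (SE 0.12, adjusted p = 0.150) and 0.33 for miR-194-5p (SE 0.18, adjusted p = 0.409). The median over all miRNAs moved as well, from 0.02 to 0.24, and 21 of 167 (12.6%) were higher at an unadjusted p under 0.05. miR-192-5p was among these (edgeR unadjusted p = 0.00625) and miR-194-5p was not (edgeR unadjusted p = 0.0858).

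Counting reads with up to 3 mismatches in the first 18 bases, a rule chosen after the data were seen, brought the sets closer together. miR-192-5p then had 28530, 25886 and 27032 TPM in NAFLD 1 to 3 and 21689, 18818 and 25612 TPM in normal 1 to 3. All 3 NAFLD libraries lay above all 3 normal libraries, the closest being NAFLD 2 and normal 3. The means were 27149 ± 1326 and 22040 ± 3411 TPM (SD, n = 3 each), a 1.23-fold difference (exact permutation p = 0.1, the smallest p that 3 against 3 libraries allow). Of 181 miRNAs counted in this way, 13.3% had all NAFLD libraries above all normal ones and 16% had no overlap in either direction. Of these 181, 20 (11%) were higher at an unadjusted p under 0.05 in edgeR and 0 passed after adjustment (0%). In edgeR the log2 fold change of miR-192-5p was 0.30 (SE 0.13, unadjusted p = 0.0313, adjusted p = 0.373), beside a median of 0.20 over all 181 miRNAs. miR-192-5p did not pass the threshold.

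miR-194-5p counted with up to 3 mismatches had 627, 494 and 456 TPM in NAFLD 1 to 3 and 499, 367 and 498 TPM in normal 1 to 3. The groups still overlapped, with means of 526 ± 90 and 455 ± 76 TPM (SD, n = 3 each; exact permutation p = 0.6) and a log2 fold change of 0.21 (SE 0.21, edgeR adjusted p = 0.762). Under this rule the low over the high set was 1.06-fold for miR-192-5p and 1.23-fold for miR-194-5p, and the median log2 ratio over 41 miRNAs was 0.07. For miR-194-5p all low libraries still lay above all high ones, the closest being normal 3 (498 TPM) and NAFLD 2 (494 TPM). Such a division was seen in 6 of the 41 miRNAs. With the set as a covariate as well, the log2 fold change of miR-192-5p was 0.38 (edgeR adjusted p = 0.0954) and that of miR-194-5p 0.35 (edgeR adjusted p = 0.371), where 27 of 181 miRNAs (14.9%) were higher at an unadjusted p under 0.05. Of the 2 miRNAs, miR-192-5p was among these (edgeR unadjusted p = 0.00377) and miR-194-5p was not (edgeR unadjusted p = 0.0770). Neither miRNA passed the threshold under any of these counts. Whether the lower miR-122 or the lower share of miRNA reads in the NAFLD libraries plays a part in these values was not tested.

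**Figure D3:**
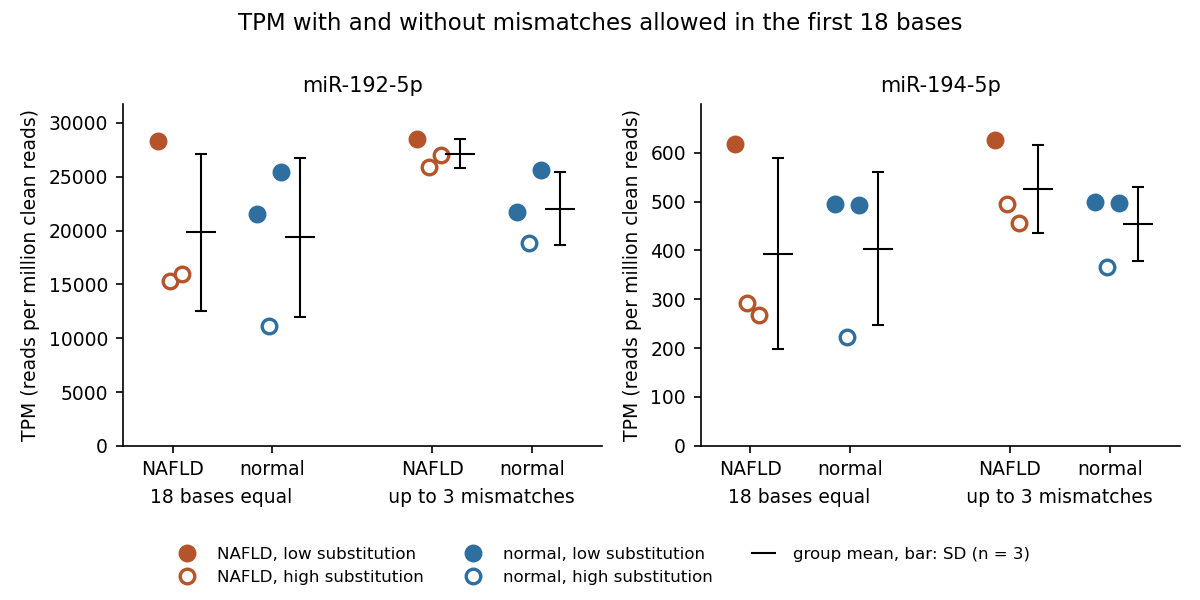
TPM of miR-192-5p and miR-194-5p in each library when all 18 bases had to match and when up to 3 mismatches were allowed (y axis, reads per 1000000 clean reads; x axis, group and rule), filled points for the low and open points for the high substitution set, with the group mean and SD (n = 3). The open points rise under the second rule, and for miR-192-5p the NAFLD points, 25886 to 28530 TPM, then lie above the normal points, 18818 to 25612 TPM.

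The ratio of miR-192-5p to miR-194-5p compares the products of gene pairs in the same library and needs no scaling by depth. There were 45.7, 52.3 and 59.3 reads of miR-192-5p for each read of miR-194-5p in NAFLD 1 to 3, and 43.5, 49.8 and 51.5 in normal 1 to 3. The ratio was highest in NAFLD 3 and lowest in normal 1, and the other 4 libraries lay between them with the groups overlapping. The means were 52.4 ± 6.78 and 48.3 ± 4.20 (SD, n = 3 each), and the log2 difference was 0.12 (exact permutation p = 0.4). The highest ratio was 1.36 times the lowest, where the TPM of miR-192-5p ranged over 2.54-fold and that of miR-194-5p over 2.77-fold. Allowing up to 3 mismatches left the ratios at 43.5 to 59.3.

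Within the low substitution set the log2 difference of the ratio was -0.05 and within the high set 0.16, so its direction was not the same in both. When only reads equal to the whole mature sequences were counted, the ratio was 177, 197 and 198 in NAFLD 1 to 3 and 150, 164 and 172 in normal 1 to 3. These groups did not overlap (log2 difference 0.24, exact permutation p = 0.1). This was 1 of 7 ways in which the ratio was counted, and in the other 6 the groups overlapped (exact permutation p = 0.4 to 0.5). The full mature form made up 6.81% of miR-194-5p reads and 23.9% of miR-192-5p reads on average.

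**Figure D4:**
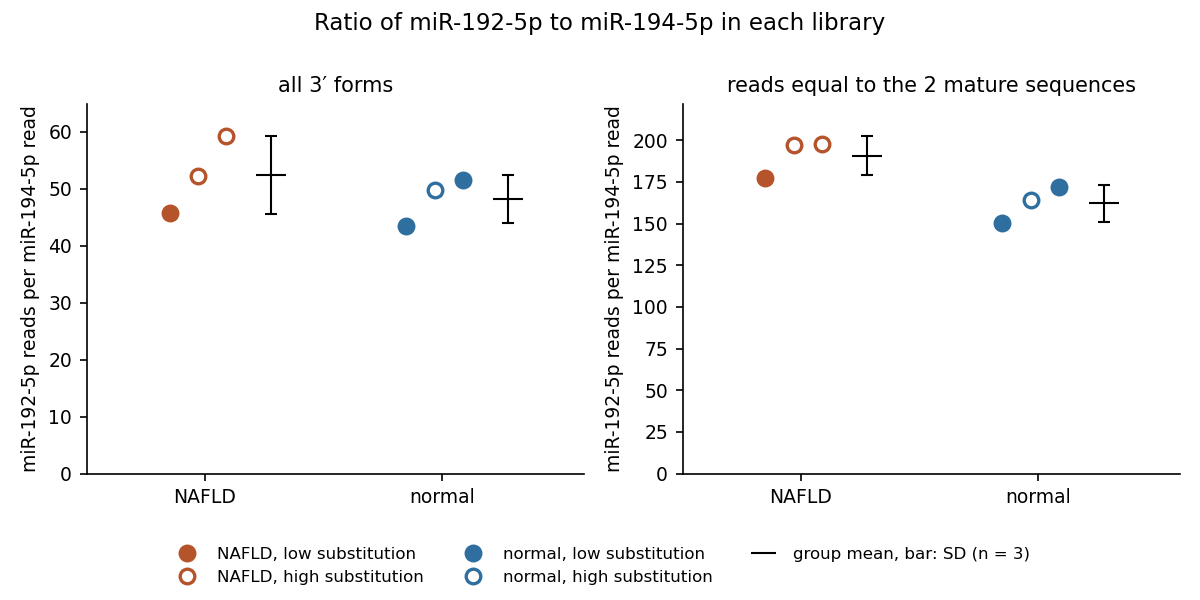
Reads of miR-192-5p per read of miR-194-5p in each library (y axis) by group (x axis), over all 3′ forms and over reads equal to the mature sequences, filled points for the low and open points for the high substitution set, with the group mean and SD (n = 3). Over all forms the ratio lies between 43.5 and 59.3 and the groups overlap; over the mature forms it lies between 150 and 198 and they do not.

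The opposite arms of the hairpins, which are mostly degraded once the 5p strand is loaded, were rare. miR-192-3p had 20, 8 and 9 reads in NAFLD 1 to 3 and 28, 6 and 11 reads in normal 1 to 3 (exact permutation p = 0.8 on TPM). miR-194-3p had 10, 12 and 11 reads against 7, 10 and 10 reads. In TPM the NAFLD libraries all lay above the normal ones for miR-194-3p, 0.938 ± 0.0794 against 0.758 ± 0.145 (SD, n = 3 each; exact permutation p = 0.1), where 2.99% of the 167 miRNAs tested lay above in this way and 4.19% had no overlap in either direction; its counting intervals overlap between all libraries.

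The 3′ forms were read from the bases that follow the mature 5′ start. The leading tags of miR-192-5p and miR-194-5p are given because they end past the mature sequence; bases that the hairpin does not encode are in capitals.
miR-192-5p, 1 base longer: cugaccuaugaauugacagcca
miR-192-5p, mature: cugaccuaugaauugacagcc
miR-192-5p, 1 base longer with 1 U: cugaccuaugaauugacagccaU
miR-192-5p, 1 base longer with 2 U: cugaccuaugaauugacagccaUU
miR-192-5p, mature with 1 U: cugaccuaugaauugacagccU
miR-194-5p, 1 base longer: uguaacagcaacuccauguggaa
miR-194-5p, 1 base longer with 1 U: uguaacagcaacuccauguggaaU
miR-194-5p, 1 base longer with 1 A: uguaacagcaacuccauguggaaA
miR-194-5p, mature: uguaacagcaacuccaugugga
miR-194-5p, 1 base shorter: uguaacagcaacuccaugugg
Over the 6 libraries, the 5 forms of miR-192-5p took on average 24.9%, 23.9%, 15.3%, 8.08% and 3.65% of its reads, in the order shown. Those of miR-194-5p took 49.6%, 16.4%, 13.8%, 6.81% and 2.31%. miR-215 was read mostly in its mature form, 53 of 62 reads, and its next tags had 4 and 2 reads and ended 1 and 2 bases short. The mature form took 86.7%, 100% and 87.5% of miR-215 reads in NAFLD 1 to 3 and 82.6%, 75% and 85.7% in normal 1 to 3, without overlap (exact permutation p = 0.1), which held for the mature form of 12% of 25 miRNAs with at least 1000 reads in every library; a single read more or less would change this in the libraries with 4 to 8 reads.

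The 7 other forms of miR-192-5p with at least 1% of its reads had averages of 1.18% to 3.54%. Of these, the mature end with UU was at 1.32% ± 0.0361 in NAFLD and 1.56% ± 0.0662 in normal libraries without overlap (SD, n = 3 each; exact permutation p = 0.1), where 15% of the 180 forms of this share over 25 miRNAs had no overlap. The other 11 forms of miR-192-5p and the 8 forms of miR-194-5p above that share overlapped between the groups.

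The mean 3′ end lay past the mature end by a similar distance in both groups. For miR-192-5p it was 1.35, 1.35 and 1.53 bases in NAFLD 1 to 3 and 1.33, 1.54 and 1.32 bases in normal 1 to 3 (exact permutation p = 0.6). The 3 high substitution libraries had the 3 highest values, with NAFLD 2 (1.353) just above NAFLD 1 (1.347). The sets had no overlap in this measure for 28% of the 25 miRNAs with at least 1000 reads in every library. For miR-194-5p the mean 3′ end was 1.40, 1.37 and 1.42 bases against 1.28, 1.49 and 1.29 bases (exact permutation p = 0.6), with normal 2 highest. For miR-215 it was -0.13, 0 and -0.25 bases against -0.09, -0.25 and 0.14 bases (exact permutation p = 0.7) on very few reads.

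Tails that the hairpin does not encode were common on both abundant miRNAs. They were on 42.4%, 43.5% and 48.2% of miR-192-5p reads in NAFLD 1 to 3 and on 44.9%, 50.01% and 43.8% in normal 1 to 3 (exact permutation p = 0.5). For miR-194-5p they were on 41.3%, 40.2% and 42.5% against 37.3%, 48.5% and 35.6% (exact permutation p = 1). The groups overlapped for both, and substituted last bases would count as a tail. Of 33 miRNAs with at least 1000 reads in every library, 3 that share their first 18 bases with another miRNA and 5 whose hairpin does not reach 5 bases past the mature end were left out. Among the 25 that remained, these shares ranked 3 and 4, beside a median of 22.8%.

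The tails of the 2 miRNAs differed in their bases. Tails of U alone, the product of terminal uridylyl transferases where they are added in the cell, were on 35.3% ± 1.65 of miR-192-5p reads in NAFLD and 36.9% ± 2.09 in normal libraries, and on 21.4% ± 0.957 and 20.3% ± 2.59 of miR-194-5p reads (SD, n = 3 each; exact permutation p = 0.4 and 0.5 between the groups). Tails of A alone were on 3.23% ± 0.0629 and 3.56% ± 0.0519 of miR-192-5p reads and on 14.6% ± 0.638 and 15.5% ± 2.30 of miR-194-5p reads (SD, n = 3 each). A tails thus ranked 19 of 25 in miR-192-5p and 2 of 25 in miR-194-5p. The hairpins of Mir192 and Mir194-2 encode an A right after the mature end. An A added straight to the mature end was therefore counted as encoded and not as a tail. The A tails of miR-192-5p were lower in every NAFLD library than in every normal one (exact permutation p = 0.1), which held, in one direction or the other, for 40% of the 25 miRNAs.

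The 5′ start also varied in miR-192-5p, and a shifted start moves the seed. Reads that began 1 base inside the mature start made up 10.7%, 13.7% and 13.9% in NAFLD 1 to 3 and 12.2%, 15.2% and 11.3% in normal 1 to 3, of the reads with either start. The groups overlapped, at 12.8% ± 1.81 and 12.9% ± 2.07 (SD, n = 3 each; exact permutation p = 1), and the high substitution libraries had the 3 highest shares. Both starts were counted by exact matches, which leave out substituted reads, and whether this moved the shares of the high set was not tested. Of the 33 miRNAs examined, 36.4% had no overlap between the sets in this share and 12.1% had none between the groups. miR-192-5p ranked 3 among those 33, beside a median of 0.0943%, and miR-194-5p had 0.0576%. The leading shifted tag, with its seed in capitals, is shown because its seed is not that of the mature miRNA.
miR-192-5p, start 1 base inside: uGACCUAUgaauugacagccagu
This tag had 15274, 11177 and 11962 reads in NAFLD 1 to 3 and 13772, 9576 and 15154 reads in normal 1 to 3, more than miR-194-5p as a whole in every library.

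Reads with the shifted start also ended elsewhere. An end 3 encoded bases past the mature end, without a tail, was found on 39.1% ± 0.208 of shifted reads in NAFLD and 39.6% ± 0.845 in normal libraries, but on 1.39% ± 0.0476 and 1.29% ± 0.256 of reads with the mature start (SD, n = 3 each). The values did not overlap between the starts in any library, whereas the groups overlapped for both (exact permutation p = 0.5 each). Reads of both starts ended 1 encoded base past the mature end in 24.9% (mature start) and 13.9% (shifted start) of cases. Tails were on 45.5% of reads with the mature start and 30.2% of those with the shifted start, as means over the 6 libraries.

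**Figure D5:**
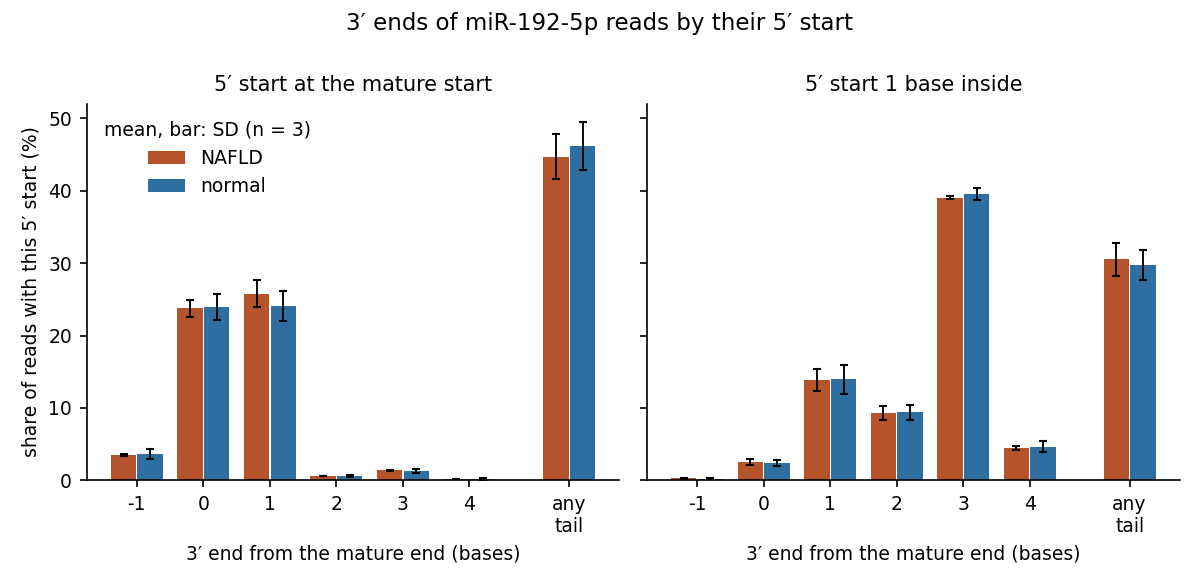
Share of miR-192-5p reads (y axis, percent of reads with that 5′ start) by the 3′ end that the hairpin encodes, counted in bases from the mature end, and with any tail (x axis), for reads with the mature start and reads starting 1 base inside; bars are means and lines are SD (n = 3) of NAFLD and normal libraries. Without a tail, reads with the mature start end most often at 1 and 0, and reads with the shifted start most often at 3, with NAFLD and normal bars of similar height.

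The 2 copies of miR-194 encode the same mature sequence, and only bases beyond it can tell them apart. The base after the mature end is A in Mir194-2, beside Mir192, and C in Mir194-1, beside Mir215. Of 25367 miR-194-5p reads that reached past the mature end, 24749 (97.6%) had A, 598 had U, 13 had C and 7 had G. An A can be encoded by Mir194-2 or added to either copy, so this share is not a share of the copies. Of these reads, 126 went on with the AG of Mir194-2 and 0 with the CU of Mir194-1. On the 3p arms, Mir194-2 had 15 reads that matched its hairpin exactly and Mir194-1 had 0. These are the counts of the gene pairs with miR-192 and with miR-215, of which miR-215 itself was the rare one.

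Other miRNAs linked to HNF factors or p53 were counted from a list of 11. Of these, 8 were in the RefSeq table and 7 had enough reads to be tested. Among the 7, 0 were called higher and 1, miR-122-5p, lower. That was the only call among all 167 miRNAs tested (0.599%), and it was lost under the alternatives named above. The median log2 fold change of the 7 was -0.23, beside 0.02 over all 167. The other 6 did not pass the threshold (edgeR adjusted p = 0.986 each). Among these, miR-107-3p was counted together with miR-103-3p because their first 18 bases are the same.

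The miRNAs whose levels followed most closely were found by Pearson's r of log2 TPM over the 6 libraries, among 37 miRNAs with a mean of at least 100 TPM. For miR-192-5p these were miR-31a-5p (r = 0.984), miR-29a-3p (0.982) and miR-152-3p (0.979), with miR-194-5p at rank 7 (0.971). For miR-194-5p they were miR-29c-3p (0.990), miR-29a-3p (0.989) and miR-31a-5p (0.979). miR-215 was most like miR-22-3p (0.930), the pair miR-23a-3p and miR-23b-3p (0.892) and miR-191a-5p (0.875). The 6 points share their libraries and the 2 substitution sets, so these values describe the libraries and carry no test.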

How the data were processed

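Liver small RNA of 3 NAFLD and 3 normal rats was analysed. The authors sequenced gel-purified small RNA on the Solexa platform, removed adaptors and low-quality reads, and deposited for each library the counts of reads per tag, without normalization or a genome match. The second deposited form of each tag list was not used here.

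Tags were assigned to miRNAs of the RefSeq table (GRCr8) by equal first 18 bases, which gave 674 groups from 693 names, without 7 names shorter than 18 bases. TPM is the count divided by the clean reads of the library, times 1000000, as in the study. For the test of all groups, the quasi-likelihood functions of edgeR 4.0.16 (under R 4.3.3) were used after filterByExpr, with clean reads as library sizes, and Benjamini-Hochberg adjusted p-values were read at a threshold of 0.05. Single values, ratios and end forms were compared by two-sided exact permutation tests of group means, for which 3 against 3 cannot go below 0.1. A tail is the part of a read past the longest match to the hairpin. End forms were compared with 25 miRNAs of at least 1000 reads in every library. Tags were handled with pandas 2.3.3 and numpy 2.4.6 under Python 3.11.15, and figures were drawn with matplotlib 3.10.9. The fit was tested on simulated data. At the common dispersion of the fit (0.151, a measure of spread between libraries), it recovered 23 of 200 changes of 1 on the log2 scale. Of changes of 2 on that scale it recovered 180 of 200. At a lower dispersion of 0.02 it recovered 179 and 200 of 200. A change of 1 on the log2 scale would thus mostly be missed at the spread of the fit.

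The miRNAs, lists, tests and the substitution sets were chosen with earlier results of these data known. The text names the 3 miRNAs, the opposite arms, their 5 leading tags, forms of at least 1% of reads, the 3 miRNAs most alike, and list members past the threshold. The substitutions, the shifted 5′ start and the bases after miR-194-5p were chosen after their values were seen. Counts with up to 3 mismatches, with and without the set as a covariate, were also chosen after seeing the data. Other alternatives were DESeq2 1.42.0, limma 3.58.1 on log2(TPM + 1), TMM factors, other filters, match lengths and library sizes, the replicate number as a block, and each library left out.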

Additional observations from a re-analysis of the deposited data

How the results depend on the processing

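Under the alternatives fitted across all miRNAs, the lowest adjusted p was 0.0954 for miR-192-5p and 0.371 for miR-194-5p, both with up to 3 mismatches and the substitution set as a covariate in edgeR. The exact tests of miR-215, the ratio and the 3′ ends cannot reach 0.05 with these libraries, so their p-values say nothing about stability. The direction of differences near 0 changed with several alternatives. For miR-194-5p, -0.04 on the log2 scale, the value turned to 0.16 with the reads of all miRNAs as library size, 0.33 with the substitution set as a covariate, 0.16 with at most 1 mismatch, 0.21 with up to 3 mismatches and 0.35 with up to 3 mismatches and the set. For miR-215, -0.26, it turned to 0.0185 with at most 1 mismatch, 0.17 with up to 3 mismatches and 0.52 with the set as well; with TMM factors, the miRNA library size, limma, the block or the set alone it had no value, since it did not pass the filter. Leaving out 1 library at a time gave -0.31 to 0.28 for miR-192-5p (main 0.04, with the lowest value without NAFLD 1), -0.52 to 0.17 for miR-194-5p, -0.79 to 0.79 for miR-215 (highest without normal 1), 0.02 to 0.21 for the log2 ratio, and -0.0449 to 0.0862, 0.00823 to 0.11 and -0.16 to 0.0407 bases for the mean 3′ ends of miR-192-5p, miR-194-5p and miR-215. The direction turned without NAFLD 1 or normal 2 for miR-192-5p, without NAFLD 2, NAFLD 3, normal 1 or normal 3 for miR-194-5p, and without NAFLD 2 or normal 1 for miR-215. Within the low substitution set the log2 ratio was -0.0505. Within the high set the mean 3′ end differed by -0.10 bases for miR-192-5p, -0.0882 for miR-194-5p and 0.13 for miR-215, and with at most 1 mismatch the miR-215 value was 0.0446. The cause of these changes was not tested.

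The number of miRNAs past the threshold was 1 in the main analysis and 1 to 2 with a library left out (2 without NAFLD 1). It was 0 with TMM factors (12 at an unadjusted p under 0.05), 0 with the miRNA library size (6), 0 with up to 3 mismatches (23) and 0 with limma on log2(TPM + 1) (2), and 1 with DESeq2 (11 at an unadjusted p under 0.05).

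Same-numbered libraries did not deviate together (r = 0.15, 0.34 and -0.54), so the numbers were not taken as pairs. With the replicate block the values were 0.07 for miR-192-5p, -0.05 for miR-194-5p and 0.12 for the log2 ratio. The mean 3′ ends differed by 0.01, 0.04 and -0.06 bases, and 1 miRNA was past the threshold. For the ratio, the signs of the same-numbered differences were flipped (exact sign-flip p = 0.25). That is the smallest p such a test allows here, so it cannot decide whether the ratio differs. The ratio was higher in each NAFLD library than in the same-numbered normal one (45.7 against 43.5, 52.3 against 49.8, 59.3 against 51.5). This order depends on the numbering, which was not taken as pairs: NAFLD 1 at 45.7 lay below normal 2 at 49.8 and normal 3 at 51.5.

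The 2 substitution sets hold 1 or 2 libraries of each group, so no test within a set was made. Depth limits miR-215, the 3p arms and the copies of miR-194, while for miR-192-5p and miR-194-5p the spread between libraries is the limit.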
